A study of Mus musculus with 4 samples.

Results

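The genes of cholesterol synthesis, its control by sterol regulatory element-binding protein (SREBP), and cholesterol uptake, trafficking, storage and efflux were described in cultured mouse alveolar type II cells. The list was fixed by name and held 31 names for 30 genes, because Sc4mol and Msmo1 are names of the same gene, and all 30 were found among the 28096 gene identifiers of the deposited tables. They comprised 6 genes of SREBP control, 17 of synthesis (7 up to squalene and 10 from squalene to cholesterol), 1 of uptake, 3 of trafficking, 1 of storage and 2 of efflux.

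Polyadenylated RNA was sequenced in 4 libraries that share the genotype label KRasEtv wt, and no other group was analysed here. The cells were sorted from mouse lung by surface EpCAM and the absence of CD24, CD45, CD31 and Pdpn, then kept in pure matrigel in BEGM medium with 100 nM 4OHT (4-hydroxytamoxifen, the ligand that activates CreERT2) for 4 days and without it for 1 day. The series design names 3 genotypes, all with KRaswt/d12 and RosaCreERT2, of which one adds Etv5loxp/loxp and another adds Etv4KO/KO and Etv5loxp/loxp. The label KRasEtv wt is not tied to one of them, and no strain, age or sex is given. RosaCreERT2 drives a tamoxifen-dependent recombinase from the broadly active Rosa locus, so it is not limited to type II cells. Replicates 1 to 4 are numbered in accession order and are called libraries 1 to 4. The labels do not say that they came from separate mice, so any p-value measures only the spread between these libraries, which may be technical.

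Libraries held 12133251 to 13591876 counted reads. The 2 mitochondrial ribosomal RNAs took 19.6% to 38.9% of them, which lowers the reads left for other genes in libraries 2 and 4. The labelled cell type was checked on 9 type II markers, and each of the 9 reached 1 nRPKM on average (nRPKM is a read count adjusted for library size factor and gene length), with Sftpc at 10006 ± 3649 (SD, n = 4). Summed over the 9 markers, library 1 was lowest (9030 nRPKM) and library 3 highest (20194 nRPKM). Of 6 cycling-cell markers, all 6 reached 1 on average, with sums from 73.4 nRPKM in library 1 to 180.1 in library 4. Markers of other lung cells were also read. The 4 club-cell markers summed to 116 to 955 nRPKM, with Scgb1a1 at 879.6 in library 2, and the 4 basal-cell markers to 19.97 to 143, with Krt5 at 70.6 in library 1. The 6 mesenchyme markers summed to 5.18 to 28.5 nRPKM, and the 4 endothelium markers to 0.128 to 0.629 with 0 of 4 at a mean of at least 1. The 12 leukocyte markers are given with Abcg1. No marker of these lists was at 0 reads in any library.

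Cholesterol is built from acetyl-CoA through mevalonate and squalene. When the endoplasmic reticulum holds little sterol, the escort protein Scap carries SREBP to the Golgi, where a pair of proteases frees the transcription factor; when sterol is plentiful, Insig proteins keep Scap and SREBP in place. Oxidised sterols in turn activate the nuclear receptors LXR, which induce the efflux pumps, the uptake brake Mylip and also Srebf1. In alveolar type II cells, cholesterol is the main neutral lipid that goes into surfactant.

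The listed genes were expressed almost throughout, and the list does not hold every gene of the pathway. Of the 30 genes, 27 reached 1 nRPKM in every library, against 10888 of all 28096 identifiers, and the median of their mean levels was 11.7 nRPKM against 0.345 over all identifiers. The exceptions were Idi1, Mylip and Abcg1. Mean levels spanned from 0.316 nRPKM for Idi1 to 186 for Npc2. The trafficking gene Npc2, the storage gene Soat1 and the trafficking gene Npc1 lay highest, followed by the synthesis genes Sqle, Msmo1 and Cyp51. Abca1, Mylip and Abcg1 had means of 1.62, 1.04 and 0.534 nRPKM.

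**Figure D1:**
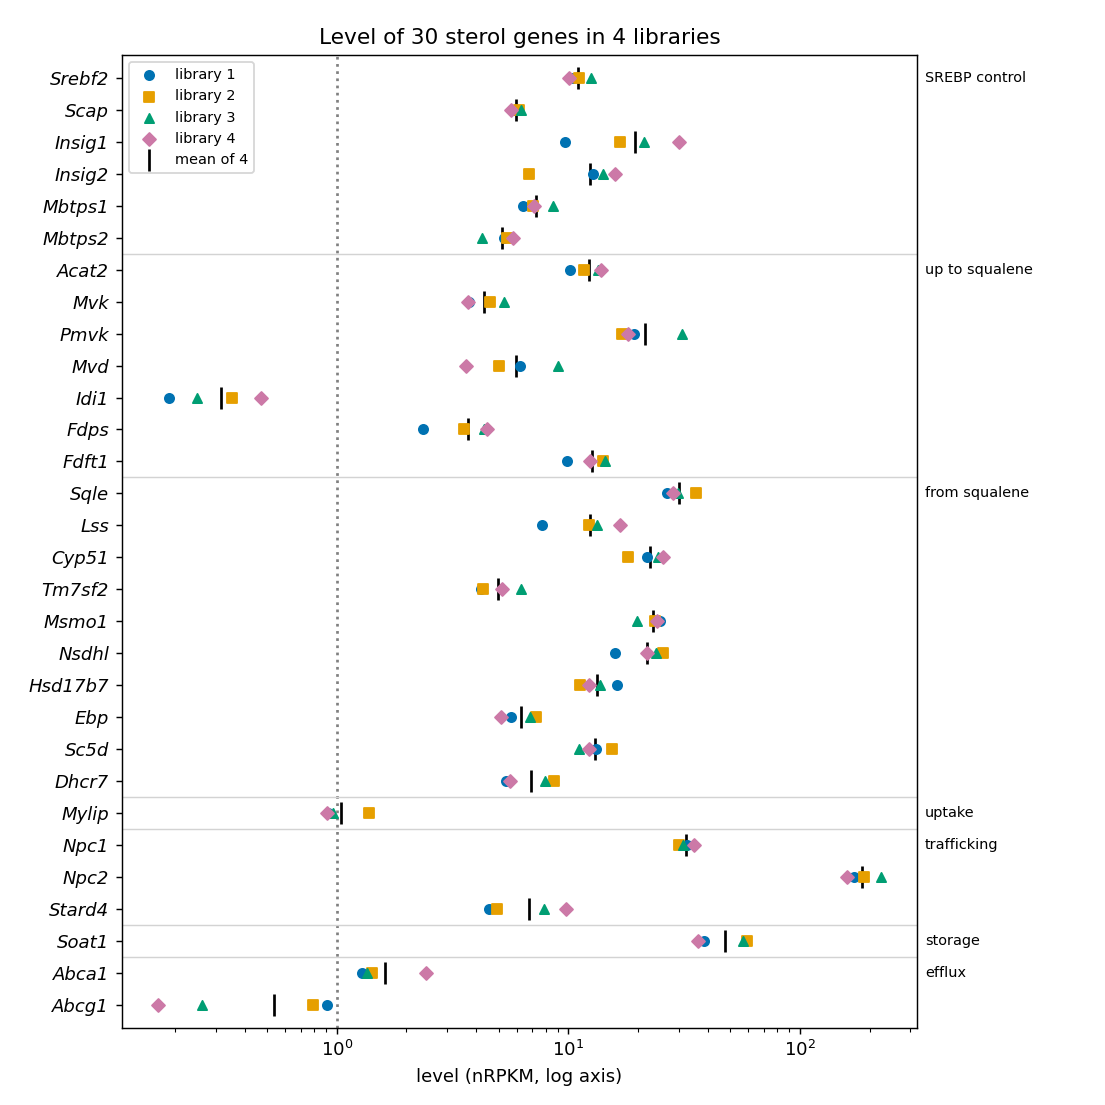
Level of each of the 30 sterol genes in libraries 1 to 4 on a log axis in nRPKM, ordered by role, with the mean of the 4 libraries as a vertical bar and a dotted line at 1 nRPKM. Npc2 lies highest at 160.5 to 224 nRPKM, and Idi1 and Abcg1 lie below 1 in every library.

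SREBP binds sterol elements in promoters of its targets together with factors at CCAAT and Sp1 boxes, so the 250 bases before the annotated start were searched in the RefSeq promoter table (GRCm38.p6), in which 24 of the 30 genes had 30 promoters. Fdps, Fdft1, Sqle, Npc1, Stard4 and Abcg1 were not among these 24 genes, so their promoters were not searched. On either strand, CCAAT was found for 19 of the 24 genes, against 37.5% of the 27025 genes in the table. The Sp1 box GGGCGG was found for 21 of the 24, against 35.4%. Both shares over all genes include genes not expressed here, and expressed genes alone were not compared. Among the 14 synthesis genes with a promoter, 13 held CCAAT and 13 held GGGCGG. The sterol element TCACNCCAC was found in none of the 24 genes and in 1.22% of all genes, and its longer form with a leading A in none and in 0.226%. An LXR element, AGGTNA and GGTCA with 5 free bases between them, was found in none of the 24 and in 0.0851% of all genes. A shorter sterol core, TCACNCCA, chosen after these letters gave no match, lay within the promoters of Srebf2 and Msmo1, against 4.20% of all genes; the longer sterol forms contain it, and the searched letters of one motif can overlap those of another. These matches describe letters in this window and do not show binding.

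Promoters are printed for both genes with the sterol core and for Insig1 and Lss, which differed most between libraries among the genes with a single listed promoter and the same order of libraries. Capitals mark the sterol core, CCAAT and GGGCGG on either strand (ATTGG and CCGCCC are their reverse complements). Srebf2 is shown on the plus strand of chr15:82147019-82147268, with the sterol core 162 to 155 bases before the start and the CCAAT box, read on the other strand, 135 to 131 bases before it. Msmo1 is shown on the minus strand of chr8:64733579-64733828, with the sterol core 177 to 170 bases before the start. Insig1 is shown on the plus strand of chr5:28071162-28071411 and Lss on the plus strand of chr10:76531355-76531604.
Srebf2: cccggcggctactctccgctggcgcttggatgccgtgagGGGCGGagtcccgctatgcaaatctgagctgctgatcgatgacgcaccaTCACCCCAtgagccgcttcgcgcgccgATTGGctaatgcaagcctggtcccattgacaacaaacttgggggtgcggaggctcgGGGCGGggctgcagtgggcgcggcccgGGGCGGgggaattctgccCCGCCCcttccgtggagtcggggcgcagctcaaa
Msmo1: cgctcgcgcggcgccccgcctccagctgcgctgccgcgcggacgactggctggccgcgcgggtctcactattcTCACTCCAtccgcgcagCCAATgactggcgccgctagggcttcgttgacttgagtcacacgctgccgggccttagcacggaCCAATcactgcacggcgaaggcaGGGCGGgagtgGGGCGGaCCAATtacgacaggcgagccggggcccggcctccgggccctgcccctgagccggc
Insig1: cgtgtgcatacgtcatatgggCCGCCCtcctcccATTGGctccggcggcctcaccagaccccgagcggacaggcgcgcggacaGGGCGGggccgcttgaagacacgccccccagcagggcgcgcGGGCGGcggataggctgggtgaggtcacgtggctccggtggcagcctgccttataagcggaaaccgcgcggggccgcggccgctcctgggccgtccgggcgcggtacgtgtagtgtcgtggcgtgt
Lss: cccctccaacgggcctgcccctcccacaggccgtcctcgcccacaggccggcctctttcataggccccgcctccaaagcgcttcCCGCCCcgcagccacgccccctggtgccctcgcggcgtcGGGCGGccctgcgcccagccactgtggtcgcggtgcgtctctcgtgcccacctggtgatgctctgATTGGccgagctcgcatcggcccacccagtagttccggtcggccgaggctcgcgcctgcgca

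**Figure D2:**
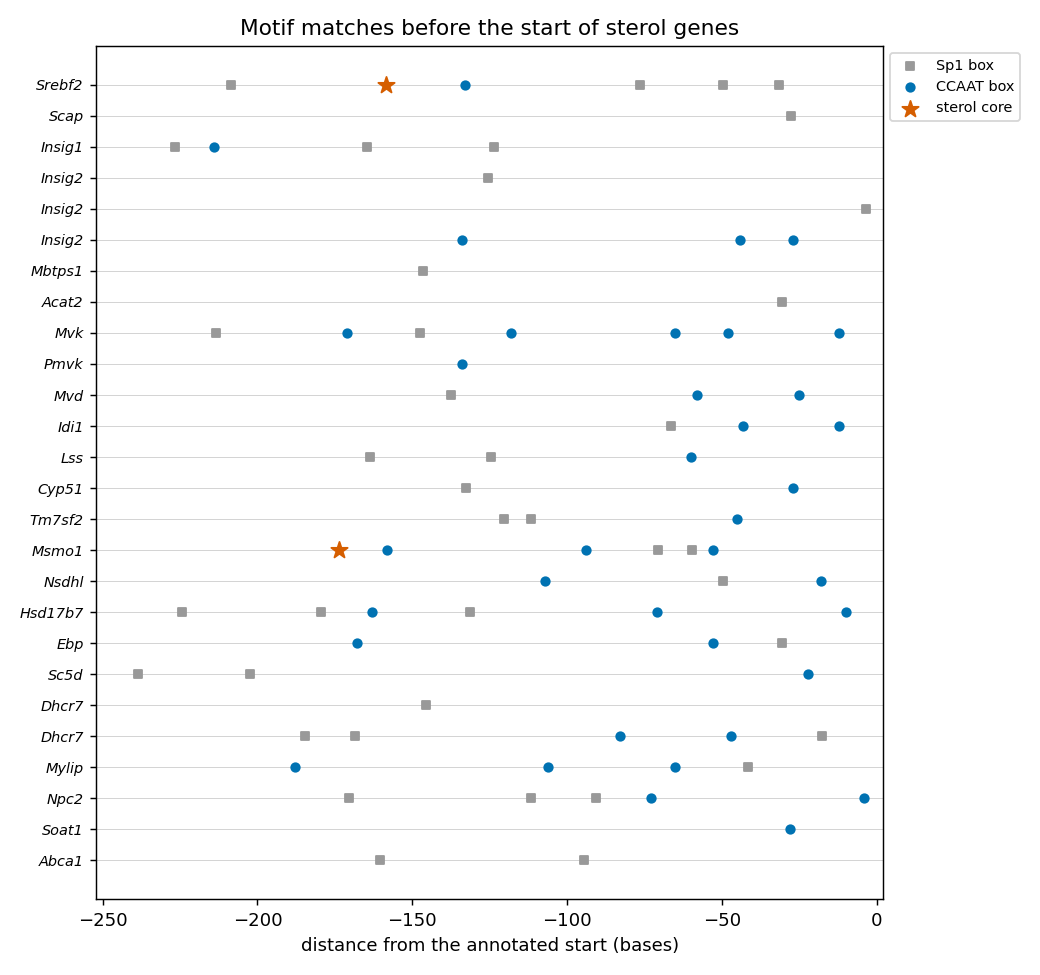
Position of CCAAT (circles), GGGCGG (squares) and the sterol core TCACNCCA (stars) before the annotated start of sterol genes, in bases, with 1 line for each RefSeq promoter that holds a match. The stars lie only in Srebf2 and Msmo1, and 19 of 24 genes carry at least 1 circle.

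Within SREBP control, the highest library exceeded the lowest by 1.24 times for Srebf2, 1.11 times for Scap, 3.10 times for Insig1 and 2.35 times for Insig2, and none of the 4 genes was called variable between libraries by the edgeR test given later (adjusted p = 0.806 for Insig1 and 0.981 for Insig2), which called 0.0152% of all genes tested. Srebf2, which encodes the SREBP of cholesterol synthesis, had 10.5, 11.1, 12.5 and 10.1 nRPKM in libraries 1 to 4, on 751 to 1195 reads. Scap, the escort, had 5.78, 6.10, 6.25 and 5.65 nRPKM. The transcript of Scap shares 13.1% of its 50-base words with another annotated gene.

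Insig1, a retention protein and itself a classic SREBP target, had 9.65, 16.7, 21.2 and 29.96 nRPKM in libraries 1 to 4, on 521, 787, 1176 and 1293 reads. Library 1 was lowest and library 4 highest by 3.10 times, and the 3 other libraries lay between 16.7 and 29.96. Its SD of log2 CPM over libraries was 0.68, and 5.88% of the 13156 genes tested had a larger one. The paralogue Insig2 had 12.8, 6.74, 14.2 and 15.8 nRPKM, so that library 2 alone stood low, on 302 reads against 652 to 749. Library 1 was therefore low for Insig1 but not for Insig2, and Insig1 was the lower of the pair there only.

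The proteases that release SREBP had highest-to-lowest ratios of 1.35 and 1.36. Mbtps1, the first to cut, had 6.36, 7.04, 8.60 and 7.11 nRPKM. Mbtps2, which cuts within the membrane, had 5.27, 5.46, 4.24 and 5.77 nRPKM. Library 3 was highest for Mbtps1 and lowest for Mbtps2.

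Synthesis up to squalene ranged widely in level. Acat2, the cytosolic thiolase that starts the pathway, had 10.1, 11.7, 13.5 and 13.9 nRPKM. Its transcript shares 45.9% of its words with Acat3 and Tcp1, and strand use is not given, so this level is uncertain. The mevalonate kinase gene Mvk had 3.72, 4.61, 5.29 and 3.70 nRPKM, and the phosphomevalonate kinase gene Pmvk had 19.2, 17.02, 31.04 and 18.2. Mvd, the decarboxylase that makes isopentenyl diphosphate, had 6.16, 5.02, 9.07 and 3.62 nRPKM. All 3 genes were highest in library 3, and the other 3 libraries of Pmvk lay within 17.02 to 19.2.

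The isoprenoid steps that follow included the lowest counts of the synthesis genes. Idi1, the isopentenyl diphosphate isomerase, had 0.188, 0.354, 0.250 and 0.471 nRPKM on 11, 18, 15 and 22 reads. It shares 30.5% of its words with other annotated genes. Fdps, which makes farnesyl diphosphate, had 2.35, 3.55, 4.35 and 4.45 nRPKM on 70 to 133 reads, and 86.4% of its words occur in other annotated genes. Only uniquely aligned reads were counted, so the levels of both genes are uncertain. Fdft1, squalene synthase, had 9.90, 14.1, 14.5 and 12.4 nRPKM. It shares 30.7% of its words with Ctsb and a further gene, so its level is uncertain as well. Library 1 was lowest for all 3.

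From squalene onward, all 10 genes lay above 1 nRPKM in every library and 9 had a mean of at least 5. Sqle, squalene epoxidase and a rate-controlling step, had 26.7, 35.5, 29.7 and 28.4 nRPKM, the highest mean of the 17 synthesis genes (30.1 ± 3.80 nRPKM; SD, n = 4). Lss, lanosterol synthase, had 7.67, 12.2, 13.3 and 16.7 nRPKM, with library 1 lowest and library 4 highest by 2.18 times. Cyp51, which demethylates lanosterol, had 21.96, 18.2, 24.5 and 25.6 nRPKM and was lowest in library 2. The sterol reductase gene Tm7sf2 had 4.21, 4.27, 6.26 and 5.19 nRPKM, the lowest mean of the 10.

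The demethylation steps that follow lay between 11.2 and 25.7 nRPKM. Msmo1, the methylsterol oxidase, had 24.96, 23.7, 19.9 and 24.1 nRPKM. Nsdhl, which acts after it, had 15.9, 25.7, 23.9 and 21.8 nRPKM, and Hsd17b7, the ketosteroid reductase of the same complex, had 16.3, 11.2, 13.7 and 12.2. Library 1 was highest for Msmo1 and Hsd17b7 and lowest for Nsdhl.

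The last enzymes were intermediate. Ebp, the sterol isomerase, had 5.66, 7.25, 6.86 and 5.11 nRPKM. Sc5d, a desaturase, had 13.1, 15.5, 11.2 and 12.3 nRPKM, and Dhcr7, the last reductase of one branch, had 5.40, 8.68, 7.97 and 5.60. Library 2 was highest for all 3 genes.

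Among the genes that handle cholesterol after synthesis or uptake, lysosomal export and storage were the most abundant. Npc2, the soluble lysosomal carrier, had 171, 190.0, 224 and 160.5 nRPKM on 8531 to 15309 reads, above 99.6% of identifiers by mean level. Its membrane partner Npc1 had 32.7, 30.1, 31.2 and 34.9 nRPKM. Npc1 had a highest-to-lowest ratio of 1.16 and shares 8.95% of its words with other genes. Soat1, which esterifies cholesterol for storage, had 38.7, 59.4, 56.6 and 36.3 nRPKM, so libraries 2 and 3 stood above libraries 1 and 4. Stard4, a soluble sterol carrier and SREBP target, had 4.57, 4.92, 7.86 and 9.76 nRPKM, with libraries 3 and 4 above libraries 1 and 2.

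The uptake brake and the exporters had mean levels of 0.534 to 1.62 nRPKM. Mylip, the ubiquitin ligase that removes lipoprotein receptors, had 0.921, 1.38, 0.961 and 0.905 nRPKM on 44 to 73 reads. The exporter gene Abca1 had 1.29, 1.42, 1.35 and 2.43 nRPKM on 258 to 407 reads, and only library 4 lay above 1.42. The exporter gene Abcg1 had 0.910, 0.793, 0.263 and 0.169 nRPKM on 108, 82, 32 and 16 reads, with libraries 1 and 2 high and libraries 3 and 4 low. Its highest-to-lowest ratio was 5.40, and 0.486% of the genes tested had a larger SD of log2 CPM.

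Markers of several other cell types were higher, as Abcg1 was, in libraries 1 and 2 than in libraries 3 and 4. The 12 leukocyte and macrophage genes listed summed to 96.8, 86.1, 44.3 and 33.95 nRPKM in libraries 1 to 4. Cd68, with 35.3, 25.3, 15.6 and 10.5 nRPKM, and Cd14, with 18.2, 16.3, 15.0 and 11.5, had the highest means of the 12. These sums therefore rest mostly on Cd68 and Cd14. Basal-cell markers summed to 143, 101, 19.97 and 46.6 nRPKM and mesenchyme markers to 28.5, 17.2, 5.18 and 12.2. Of the 12 leukocyte genes, 8 had a mean of at least 1. Tyrobp had 10.9, 8.81, 2.43 and 1.94 nRPKM. Ptprc (CD45) had 0.381, 0.696, 0.245 and 0.368 nRPKM, with libraries 1 and 4 nearly level. Csf1r, a receptor that defines macrophages, had 0.329, 0.509, 0.481 and 0.317 nRPKM and was higher in library 3 than in library 1. The part of these cells in the level of Abcg1 was not tested. In bulk RNA, fewer cells of a type and less RNA per cell cannot be told apart.

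**Figure D3:**
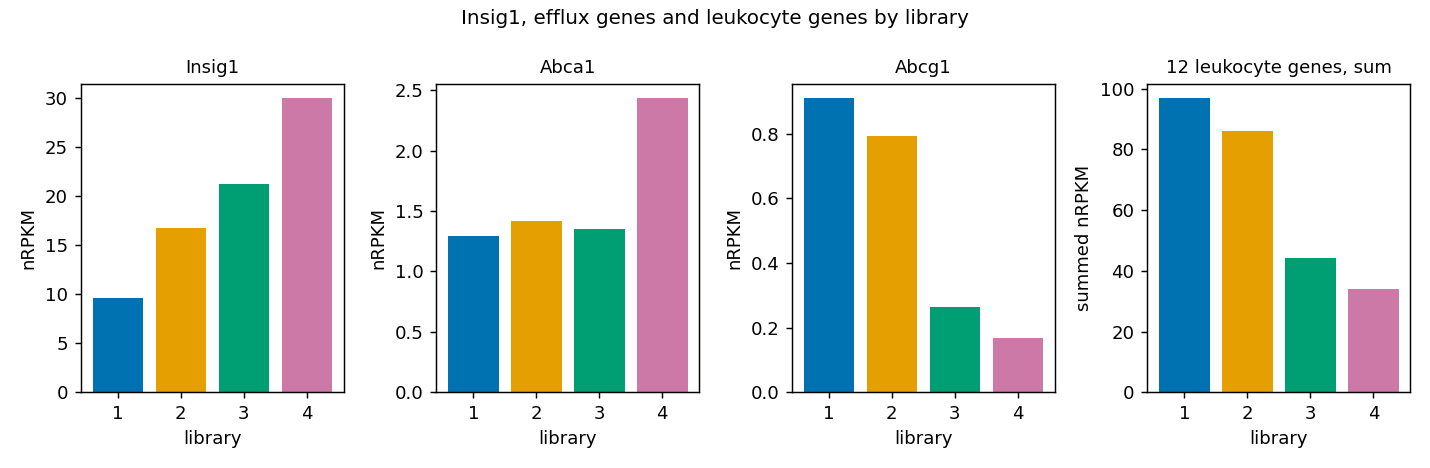
Bars from 0 show Insig1, Abca1 and Abcg1 in nRPKM and the summed nRPKM of 12 leukocyte genes in each library. Insig1 goes from 9.65 to 29.96 nRPKM, Abca1 is highest in library 4, and Abcg1 and the leukocyte sum are both higher in libraries 1 and 2 than in libraries 3 and 4.

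Related genes were compared within each library in 8 pairs by the difference of log2(nRPKM + 1), which understates differences of low genes. Over 4 libraries the two-sided exact sign-flip permutation test cannot give a p below 0.13, so no pair could pass 0.05. Npc2 exceeded Npc1 by 2.49 ± 0.28, Sqle exceeded Lss by 1.24 ± 0.41, Srebf2 exceeded Scap by 0.79 ± 0.07, Abca1 exceeded Abcg1 by 0.79 ± 0.58 and Mbtps1 exceeded Mbtps2 by 0.42 ± 0.30 (log2 differences, SD, n = 4). Each of these held in 4 of 4 libraries, with an exact permutation p of 0.13 that became 0.167 after Benjamini-Hochberg adjustment over the 8 pairs. Acat2 lay below the mitochondrial thiolase gene Acat1 in 4 of 4 libraries, with a difference of -0.56 ± 0.18 (same exact permutation p). Acat2 shares 45.9% of its words with other genes and Acat1 0%, and only uniquely aligned reads were counted, so this difference is uncertain.

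The remaining pairs did not keep their direction. Insig1 minus Insig2 was 0.56 ± 0.68 on the log2 scale and positive in 3 of 4 libraries (exact permutation p = 0.250, adjusted p = 0.286), with library 1 at -0.38. Srebf2 minus Srebf1, the gene of the SREBP best known for fatty acid synthesis, was -0.22 ± 0.40 and positive in 1 of 4 libraries (exact permutation p = 0.375, adjusted p = 0.375). Without library 2, the Srebf2 difference was -0.05. The Abca1 difference was 1.62 with a pseudocount of 0.1 and 2.33 in CPM without length correction, and the Acat2 difference was -1.27 in CPM. The ratio of Abca1 to Abcg1 in nRPKM ranged from 1.42 in library 1 to 14.4 in library 4, on 16 reads of Abcg1 there.

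**Figure D4:**
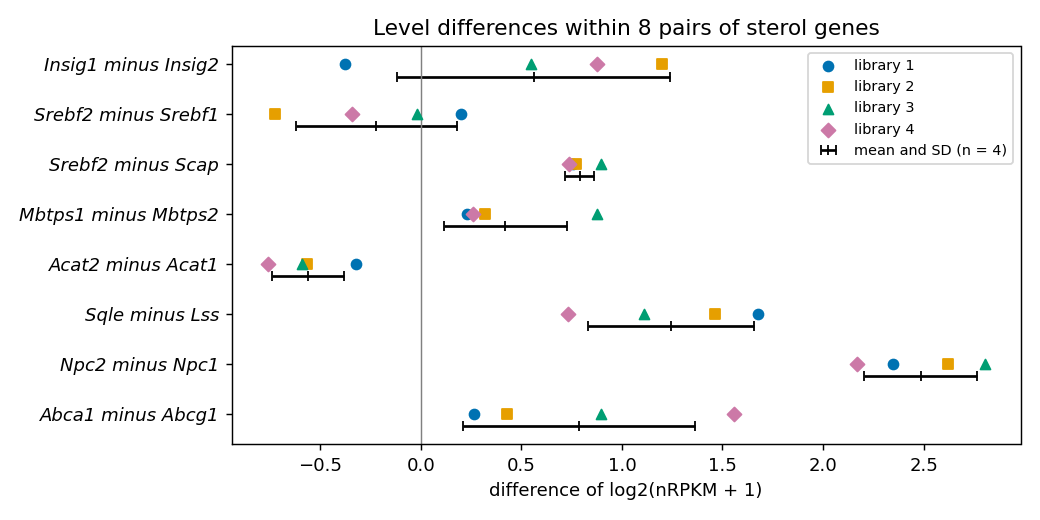
Difference of log2(nRPKM + 1) within 8 pairs of genes, with a symbol for each library and the mean and SD over 4 libraries beneath. The differences of Npc2 to Npc1 lie between 2.17 and 2.80, and those of Insig1 to Insig2 and of Srebf2 to Srebf1 fall on both sides of 0.

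Between libraries, no sterol gene was called variable. The edgeR quasi-likelihood dispersion test, fitted on all genes with Benjamini-Hochberg adjustment, called 2 of 13156 genes (0.0152%) and 0 of the 30, all of which passed the filter on low counts. Simulated counts gave every gene the dispersion of a trend fitted to all genes, which real genes vary around, so recovery may differ in the data. On these counts, the test recovered 42% of genes raised 4-fold in a single library and 84% of those raised 8-fold. Smaller ranges could therefore be missed, and a count of 0 does not show that the 30 genes were stable. In nRPKM, the widest range of the 30 was 5.40 times for Abcg1, followed by 3.10 times for Insig1. Each gene's spread is set against a trend fitted to all genes tested. The test thus asks only whether a gene varied more than genes of like level. Without adjustment, 2 of the 30 passed 0.05, against 675 of the 13156 genes, a share largely set by the fit. They were Abcg1 (adjusted p = 0.754, edgeR) and Insig1 (adjusted p = 0.806, edgeR). DESeq2 marked none of the 30 as a dispersion outlier, against 71 of the 20579 genes it was run on. The median SD of log2 CPM was 0.25 for the 30 genes and 0.30 for all genes tested. A range of at least 2-fold over the libraries was found for 7 of the 30 (Insig1, Insig2, Mvd, Idi1, Lss, Stard4 and Abcg1), against 22.6% of all genes tested, a share near the background.

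Each gene was also set against its own mean over the 4 libraries as log2 CPM after TMM scaling. Synthesis genes were lowest in library 1, with a median deviation of -0.19 and 13 of 17 below their own mean, against 6496 of all 13156 genes tested. Their medians stood at 0.05, 0.15 and -0.03 in libraries 2, 3 and 4. In library 1, the 26 further genes of sterol metabolism that were tested, described below, had a median of 0.003, with 13 below their own mean. Medians over all genes tested stayed within 0.00 to 0.02. The range of the synthesis medians, 0.33, was 0.15 without library 1 and 0.18 without library 3. The genes up to squalene had medians of -0.25 in library 1 and 0.27 in library 3, and those from squalene -0.13 and 0.13. SREBP control had medians of -0.04, -0.01, 0.20 and 0.06 in libraries 1 to 4, with a range of 0.25 that was 0.08 without library 3 and 0.15 without library 1. The 7 genes of uptake, trafficking, storage and efflux had medians of -0.14, 0.04, -0.05 and -0.18, with a range of 0.22 that was 0.10 without library 2.

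Counted over the 30 genes, 13 were lowest in library 1, against 25.6% of all genes tested, and 9 were lowest in library 4, against 27.4%. Library 4 was highest for 11, against 27.2%, and library 3 for 9, against 22.3%. Type II and cycling-cell markers were also lowest in library 1, as summed above. Leukocyte, mesenchyme, basal and endothelium markers had their highest sums there, at 96.8, 28.5, 143 and 0.629 nRPKM, and the part of either in these counts was not tested. One order of the libraries, noticed after the values were seen, had library 1 lowest, then 2, then 3 and library 4 highest. It was shared by Insig1, Acat2, Fdps, Lss and Stard4, which is 16.7% of the 30 against 5.88% of all genes tested, and the libraries themselves have no order. The order was picked from these same values, so the shares are no test of it. The levels of Acat2 and Fdps are uncertain, as given above.

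**Figure D5:**
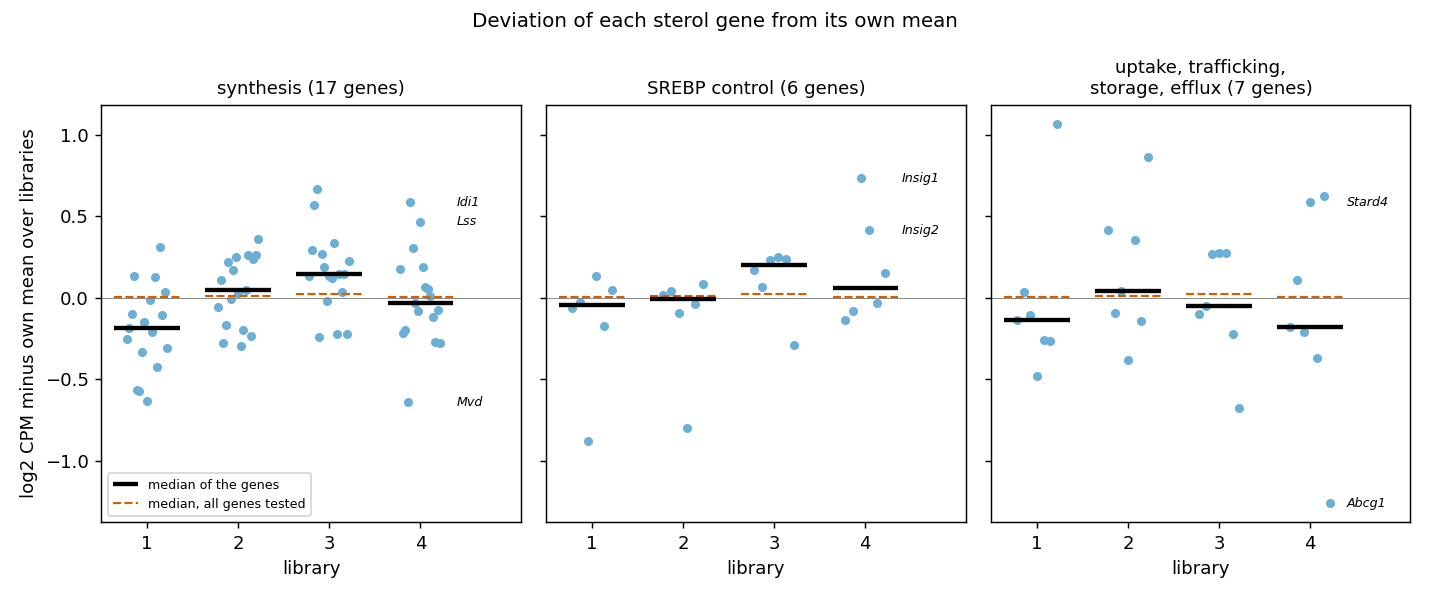
Log2 CPM of each sterol gene minus its own mean over the 4 libraries (points), with the median of the genes (black) and of all genes tested (dashed) in each library, for synthesis, SREBP control, and uptake, trafficking, storage and efflux. Synthesis genes have a median of -0.19 in library 1 and 0.15 in library 3, and Abcg1 spans the widest range.

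Of 31 further genes of sterol metabolism, 26 had a mean of at least 1 nRPKM, with a median of mean levels of 4.51 nRPKM against 11.7 for the 30. Among the 5 highest were Acat1 (18.9 ± 4.77 nRPKM), Erlin2 (15.6 ± 1.08), which helps to degrade sterol-regulated proteins, and Srebf1 (13.4 ± 4.15; SD, n = 4). Of the 26 that passed the count filter, 0 were called by the same edgeR test, against 2 of all 13156 genes tested. DESeq2 called 0 of all 31, against 71 of 20579 genes. Without adjustment 1 passed 0.05, Lrp1, the gene of a large lipoprotein receptor (adjusted p = 0.967, edgeR). The LXR genes Nr1h2 and Nr1h3 had 8.92 ± 2.32 and 2.51 ± 0.751 nRPKM (SD, n = 4), and the second esterifying enzyme gene Soat2 had 6 to 27 reads.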

How the data were processed

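The 4 deposited tables, 1 per library, were used. Per the file headers, each holds a count, the number of reads uniquely aligned to the gene model, and a size-factor-adjusted RPKM (nRPKM) made by the authors from the count. GSNAP and the mm9 build are named in the submitters' processing notes; their versions, the gene models, strand handling and any filters are not stated in what was used here. Unique alignment misses sequence shared with copies, so GENCODE transcripts of GRCm38 were cut into words of 50 bases, and the words of the longest coding transcript per gene were searched in all other genes, on both strands. Entrez identifiers were named from a RefSeq table of GRCm38.p6 (25035 of 28096 matched); its coordinates were used only for promoters. Identifiers with no symbol took 2.48% to 3.71% of counts. The floor of 3 counts that a zero allows equals 0.221 to 0.247 CPM and covers counting error only.

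Levels are nRPKM. Pairs were compared on log2(nRPKM + 1). Spread was tested on counts with edgeR 4.0.16 in R 4.3.3 (intercept only, TMM, filterByExpr, quasi-dispersion against its trended prior, Benjamini-Hochberg at 0.05) and tested on simulated data; DESeq2 1.42.0 was an alternative. Deviations used log2 CPM with a prior count of 2. The members and lists were chosen with earlier results of these data known. All 30 genes are named by rule, with the 5 highest of the 31 further genes, of which some are not reported here; a few other genes of the pathway are not analysed here. Lrp1, Nr1h2, Nr1h3 and Soat2 were named after their values were seen, as were Sftpc, Scgb1a1, Krt5, Cd68, Cd14, Tyrobp, Ptprc and Csf1r.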

Additional observations from a re-analysis of the deposited data

Results flagged for a closer look

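Of 41 sets of 4 values examined (30 levels, 8 pairs and 3 group medians), 4 had a single library far from the other 3 by Dixon's ratio at its 95% critical value; chance gives about 1 in 20. Pmvk was high in library 3 at 31.04 nRPKM. Mylip was high in library 2 at 1.38 nRPKM, on 73 reads. Abca1 was high in library 4 at 2.43 nRPKM. The difference of Mbtps1 to Mbtps2 was high in library 3 at 0.87 on the log2 scale.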

How the results depend on the processing

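No pairing of libraries between groups was possible because there is a single group. The count of variable genes over all genes, 2, was 66 without a filter on low counts and 71 as DESeq2 dispersion outliers. It ranged from 0 to 6 when a library was left out: 0 without library 2 or 3 (640 and 619 genes at an unadjusted edgeR p under 0.05), 2 without library 4 and 6 without library 1. DESeq2 size factors gave 2. The count of sterol genes called was 0 under every one of these settings, with 2 or 3 at an unadjusted edgeR p under 0.05. Sterol genes at a level of at least 1 in all libraries numbered 27 when any library was left out. At a level of at least 5 they numbered 20, and at a CPM of at least 1 they numbered 29. All 8 pairs kept the sign of their mean difference with a pseudocount of 0.1, in CPM without length correction and without any library. The log2 differences that moved by over 1.5 times were Insig1 to Insig2 (0.87 without library 1, 0.35 without library 2), Srebf2 to Srebf1 (-0.36 without library 1, -0.05 without library 2, -0.15 in CPM), Mbtps1 to Mbtps2 (0.27 without library 3), Acat2 to Acat1 (-1.27 in CPM) and Abca1 to Abcg1 (1.62 with the pseudocount of 0.1, 2.33 in CPM). Ranges of the group medians over libraries moved when a library was left out, from 0.151 to 0.388 for synthesis, from 0.081 to 0.234 for SREBP control and from 0.102 to 0.302 for uptake, trafficking, storage and efflux; other scalings moved them by less than their SD. Some alternatives were added after seeing the data. The highest-to-lowest ratio of each gene under other scalings moved by less than 1.5 times. The mean level of each gene without each library moved by less than the SD. A mean of 4 values cannot move by its SD when a library is left out, so that outcome was fixed and shows nothing. Idi1 and Abcg1 rest on as few as 11 and 16 reads. The level of Idi1 is also uncertain because 30.5% of its words occur in other annotated genes.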
